A study of Homo sapiens with 4 samples.

Results

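VCAM1, CD44, THBS1 and SIRPA are 4 cell contact genes of a NanoString panel of 785 genes measured in wild-type HAP1 cells and in HAP1 cells without MATR3. They were picked from the panel as adhesion and matrix genes that differ between the genotypes, so their differences between knockout and wild type are given below as a description, with no test. The values that picked them are the same 4 values per gene that are printed here. Each genotype had 2 lines (n = 2): wild-type lines 1 and 7, and MATR3 knockout lines 1 and 5. HAP1 is a near-haploid human cell line that grows attached, and all lines were cultured alike in serum-containing medium, with no treatment named in the labels. The knockout lines are a supplier's clones 1 and 5, so each knockout sample is 1 clone, and for each wild-type line the labels give a batch number beside the clone number. The altered MATR3 allele of each clone is not given in the sources used here. MATR3 itself, which encodes the nuclear protein matrin 3, was not among the panel genes measured. The genotype labels could thus not be checked by its level.

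Cells hold on to each other and to the matrix through families of surface proteins that recognise one another, matrix fibres or sugars. VCAM1 is an immunoglobulin-type adhesion molecule that binds the integrin made of the ITGA4 and ITGB1 chains on leukocytes; endothelial cells place it on their surface after inflammatory signals that act through NF-kB. CD44 is the main surface receptor for the matrix sugar hyaluronan. THBS1, thrombospondin 1, is a secreted matrix glycoprotein and not itself a receptor; it binds CD36 and CD47 and can release active TGF-beta from its latent form. SIRPA is an inhibitory surface receptor, best known on macrophages, which binds CD47 on a neighbouring cell and recruits the phosphatases PTPN6 and PTPN11.

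NanoString counts single RNA molecules with coloured probes. The deposited values are a normalised signal, namely whole probe counts times 1 factor per line, and the counts were recovered by dividing by that factor. Total gene counts lay between 448610 and 571767 per line. The background limit, the mean plus 2 SD of the 8 negative control probes on the same scale, lay between 19.5 and 25.7. The number of panel genes above it was 409 in knockout line 5 and 448 to 558 in the other lines. Dates of culture, extraction or assay were not used here, so batch and genotype cannot be told apart. The samples are bulk RNA, in which fewer cells with a transcript and less of it per cell cannot be told apart.

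VCAM1 was the gene of the 4 that was higher without MATR3. Its normalised signal was 28.2 in wild-type line 1 and 37.65 in wild-type line 7. It was 274 in knockout line 1 and 274 in knockout line 5. Both knockout lines thus stood far above both wild-type lines, with no overlap, and the knockout lines had nearly the same value. Wild-type line 1 was only 1.10 times its background limit, while knockout line 1 was 14.03 times its own. These signals rest on 27, 44, 246 and 263 recovered counts in the same order, and the 95% exact Poisson interval for the count of 27 ran from 17.8 to 39.3. Such intervals cover counting error only. The ratio of the group means was 8.32, and the 4 ratios of 1 knockout line to 1 wild-type line ran from 7.27 to 9.72. After the mean of the negative controls was subtracted from each line, the ratio was 10.97. The log2 difference was 3.03 ± 0.20 (SE from limma, moderated over the tested genes, n = 2 per genotype).

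The stretch before the annotated VCAM1 start is shown because it is where the known NF-kB sites of this gene lie. For comparison, the same stretch is shown for CD44 and THBS1, both lower without MATR3. SIRPA, also lower, is not shown because the promoter sequences used here did not include it. Sequences are the 250 bases before the start from RefSeq (GRCh38.p14), 5′ to 3′, all on the forward strand: VCAM1 at chr1:100719492-100719741, CD44 at chr11:35138921-35139170 and THBS1 at chr15:39580829-39581078. Capitals mark each match, on either strand, to the kappa B form searched, which is GGG, then any 5 bases, then CC.
VCAM1: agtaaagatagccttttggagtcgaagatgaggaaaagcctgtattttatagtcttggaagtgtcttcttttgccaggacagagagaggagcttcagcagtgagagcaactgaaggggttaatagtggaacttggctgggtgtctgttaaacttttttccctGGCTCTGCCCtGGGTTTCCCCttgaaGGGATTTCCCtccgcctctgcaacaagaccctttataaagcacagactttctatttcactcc
CD44: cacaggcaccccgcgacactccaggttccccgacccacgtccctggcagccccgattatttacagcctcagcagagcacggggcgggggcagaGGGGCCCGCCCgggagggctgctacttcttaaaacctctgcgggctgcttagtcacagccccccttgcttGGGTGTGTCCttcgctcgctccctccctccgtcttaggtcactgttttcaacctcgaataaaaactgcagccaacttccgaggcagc
THBS1: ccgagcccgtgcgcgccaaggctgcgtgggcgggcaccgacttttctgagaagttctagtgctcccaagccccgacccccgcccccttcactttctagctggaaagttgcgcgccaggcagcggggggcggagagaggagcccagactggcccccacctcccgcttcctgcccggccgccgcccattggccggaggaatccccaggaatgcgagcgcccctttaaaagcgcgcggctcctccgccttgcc

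The VCAM1 stretch held 3 matches. The neighbouring pair GGGTTTCCCC, at -77 to -68, and GGGATTTCCC, at -62 to -53, matched on both strands, where -1 is the base before the start. The other, GGCTCTGCCC at -88 to -79, matched on the reverse strand. CD44 also held 3 matches, of which 2 overlapped, at -157 to -148 and -156 to -147. THBS1 held 0. The form is loose: it occurs in 54.4% of the 35114 RefSeq promoter stretches of this length, and 32.8% hold more than 1 match, overlaps included. A match is a string of letters and does not show that a factor bound there in these cells.

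CD44 was lower in the knockout. Its signal was 81.4 in wild-type line 1 and 70.2 in wild-type line 7, against 27.8 and 25.0 in knockout lines 1 and 5. The groups did not overlap, and the lines of a genotype lay close together. In counts, 78 and 82 molecules in the wild type stood against 25 and 24 in the knockout. Both knockout values were near background, at 1.43 and 1.15 times the limit of their line, and the 95% Poisson interval of either reached below that limit. CD44 was 2.87-fold lower on the group means, and the ratios of single lines ran from 2.52 to 3.26. With the negative control mean subtracted it was 3.69-fold lower. The log2 difference was -1.48 ± 0.27 (SE from limma).

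THBS1 was the gene whose knockout lines differed most. Its signal was 79.3 in wild-type line 1, 98.4 in wild-type line 7, 36.7 in knockout line 1 and 10.4 in knockout line 5. Both knockout lines lay below both wild-type lines, but knockout line 5 was far below knockout line 1. The recovered counts were 76, 115, 33 and 10. The 95% Poisson interval of the 10 counts, 4.99 to 19.1 on the signal scale, lay below the background limit of 21.7, so THBS1 was not detected above background in knockout line 5. In knockout line 1 it was 1.88 times the limit. The wild-type mean was 88.8 ± 13.5 and the knockout mean was 23.6 ± 18.6 (SD, n = 2). With the undetected value raised to its limit, THBS1 was at least 3.04-fold lower on the means, and at least 3.66-fold and 4.54-fold lower in knockout line 5 than in wild-type lines 1 and 7. Knockout line 1 was 2.16-fold and 2.68-fold lower than these. On the values as deposited, the log2 difference was -2.11 ± 0.47 (SE from limma, moderated over the tested genes). The pooled log2 SD within genotypes was larger, at 0.88. The log2 difference was -1.61 with the undetected value at its limit, -1.24 without knockout line 5 and -2.97 without knockout line 1.

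SIRPA had the smallest difference of the 4 genes on the log2 scale. Its signal was 103 in wild-type line 1 and 122 in wild-type line 7, against 64.5 and 68.7 in knockout lines 1 and 5. The groups did not overlap, and all 4 values were at least 3.17 times the background limit of their line. The counts were 99, 142, 58 and 66. SIRPA was 1.69-fold lower on the group means, with ratios of single lines from 1.504 to 1.883, and 1.78-fold lower with the negative control mean subtracted. The log2 difference was -0.74 ± 0.20 (SE from limma).

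**Figure D1:**
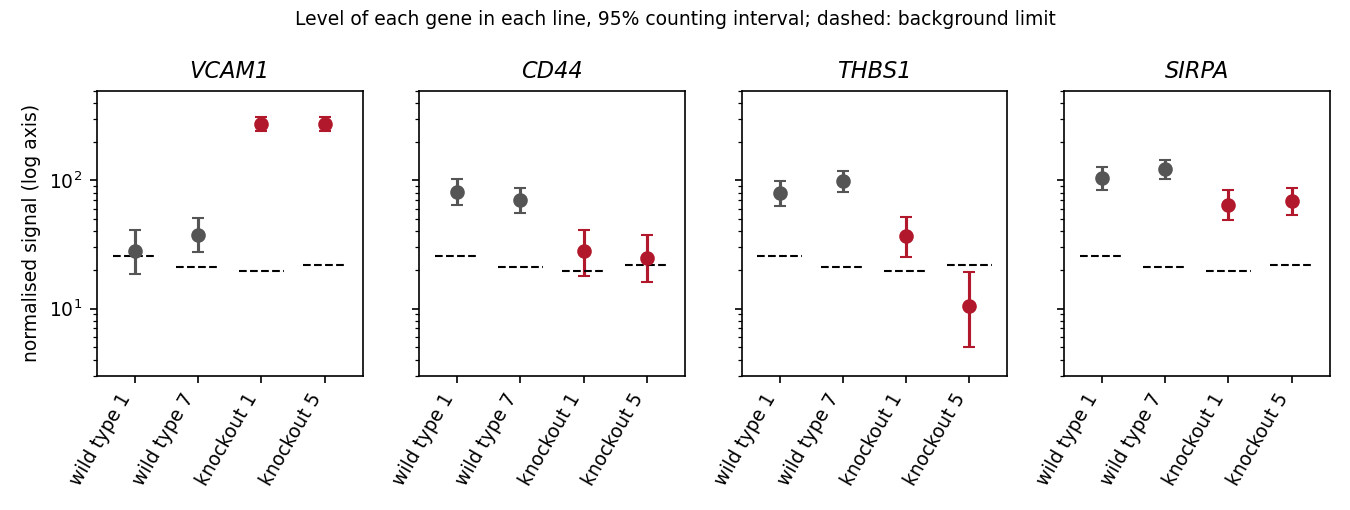
Normalised signal (log axis) of each gene in the 4 lines, with the 95% Poisson interval of its recovered count as bars and the background limit of each line as a dashed mark. VCAM1 is at 274 in both knockout lines, and THBS1 in knockout line 5, at 10.4, is the only value below its limit.

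The genotypes did not overlap in any of the 4 genes. They were picked for differing, and of the 514 panel genes with a mean signal of 20 or more, 53.1% had groups that did not overlap, 22.4% higher and 30.7% lower in the knockout. With 2 lines against 2, separation is thus common on this panel and says little about single genes. Over the 514 genes the log2 difference ran from -2.34 to 3.03, with VCAM1 at the upper end and THBS1 near the lower end. Their place in this range is a description only, because the same differences picked the genes. THBS1 was at -1.61 with knockout line 5 at its background limit.

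The contrast between lines of 1 genotype was not used to pick the genes. With 1 line on each side it has no replicate and is given as a description, beside panel genes whose mean signal lay within a factor of 2. That mean was taken over all 4 lines, 56.2 for THBS1 and 153 for VCAM1. THBS1 in the knockout lines and VCAM1 in the wild-type lines lay below it. Lower signals carry more counting error, so the ranks may overstate how unusual these differences were. Between the knockout lines, THBS1 had a log2 difference of -1.73 as deposited (line 5 minus line 1), with a 95% counting interval from -3.00 to -0.76. With line 5 at its background limit the difference was -0.73, which is a lower bound on its size. On the deposited values, 1 of 141 genes of like abundance differed more in size between these lines. Knockout line 5 also tended to be lower for such genes, with a median log2 difference of -0.13 and 83 of the 141 lower. The part of this shift in the THBS1 value was not tested.

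VCAM1, in contrast, had a log2 difference below 0.01 in size between the knockout lines as deposited, and all 125 genes of like abundance differed more. Its 95% counting interval ran from -0.26 to 0.26. This closeness depended on the scaling. On the positive control probes the difference was -0.20, beside a median size of 0.18 for the 125 genes as deposited. Under the other scalings it ran from -0.02 to 0.05. Between the wild-type lines VCAM1 differed by 0.41 (line 7 minus line 1), and 12 of 125 genes differed more in size. The counting interval of that difference, -0.31 to 1.17, included 0. The same log2 differences of CD44 were -0.21 in wild type and -0.15 in knockout. For SIRPA they were 0.23 and 0.09, and for THBS1 the wild-type lines differed by 0.31. The counting intervals of these 5 differences also included 0.

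**Figure D2:**
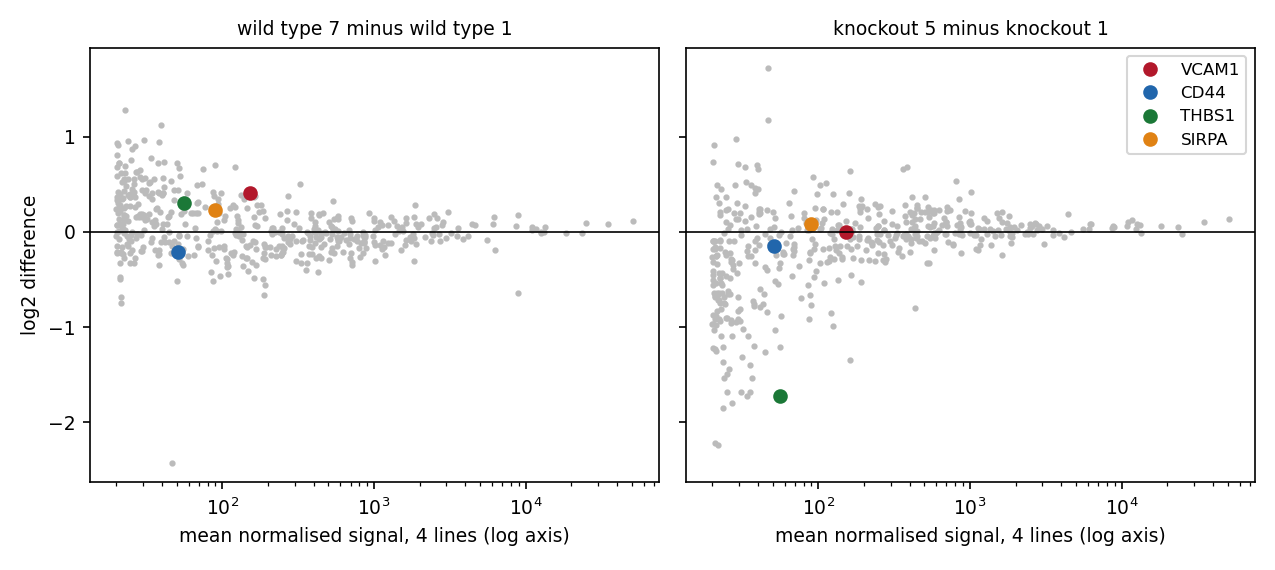
Log2 difference between the lines of 1 genotype against the mean signal of the 4 lines (log axis) for the 514 tested genes (grey) and the 4 genes (coloured), wild type on the left and knockout on the right. THBS1 lies at -1.73 in the knockout panel, while the other coloured points lie within 0.41 of 0.

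The direction of all 4 genes was the same under the 11 alternatives run for these values, which were other scalings, background subtraction, a larger pseudocount and leaving out each line. VCAM1 ranged from 2.73 to 3.43 on the log2 scale, CD44 from -1.82 to -1.23, THBS1 from -3.00 to -1.24 and SIRPA from -0.86 to -0.63. Over the 5 scalings alone the ranges were 3.02 to 3.11 for VCAM1, -1.49 to -1.26 for CD44, -2.11 to -1.86 for THBS1 and -0.74 to -0.66 for SIRPA. In VCAM1, CD44 and THBS1 the size therefore moved more with the treatment of background than with the scaling. Leaving out 1 line also moved VCAM1, THBS1 and SIRPA more than the scaling did, with ranges of 2.83 to 3.24, -2.97 to -1.24 and -0.86 to -0.63. The ends of these ranges came without a wild-type line in VCAM1 and SIRPA and without a knockout line in THBS1. For CD44 the range was -1.59 to -1.38.

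**Figure D3:**
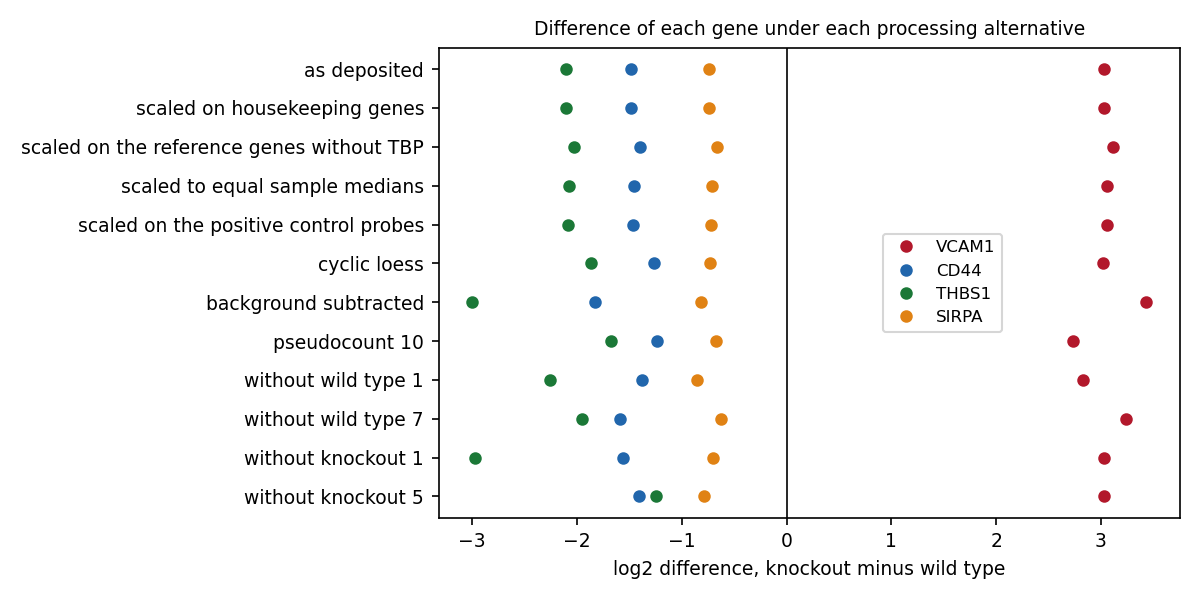
Log2 difference, knockout minus wild type, of each gene as deposited and under each alternative. VCAM1 stays between 2.73 and 3.43, SIRPA between -0.86 and -0.63, and THBS1 spreads from -3.00 to -1.24.

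The panel genes with the profile nearest to each of the 4 were found by the Euclidean distance between mean-centred log2 values over the 4 lines, among 337 other genes with a mean of 50 or more. This too is a description, since 4 values per gene set it and the genotype difference dominates it. VCAM1 was nearest to MME, a membrane peptidase, at a distance of 0.61 against a median of 3.02. MME was at 94.9 and 108 in wild-type lines 1 and 7 and at 978 and 563 in knockout lines 1 and 5. IFITM1 and PSMB8 followed at 1.27 and 1.61.

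CD44 lay close to GATA3, a lineage transcription factor, at 0.14 against a median of 1.55. GATA3 was at 161 and 145 in the wild-type lines and at 59.0 and 46.8 in the knockout lines. MDFIC and IL17D followed at 0.37 and 0.40. SIRPA was nearest to MSRA, at 0.27, then to PTK2B at 0.31 and TANK at 0.33, against a median of 0.82. THBS1 had no close match: its nearest genes were GATA3 at 1.20, HPGD at 1.20 and KIR2DL1 at 1.24, against a median of 2.49. Among the 4 genes themselves, CD44 and SIRPA were closest to each other, at 0.82, and VCAM1 and THBS1 farthest apart, at 5.28.

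**Figure D4:**
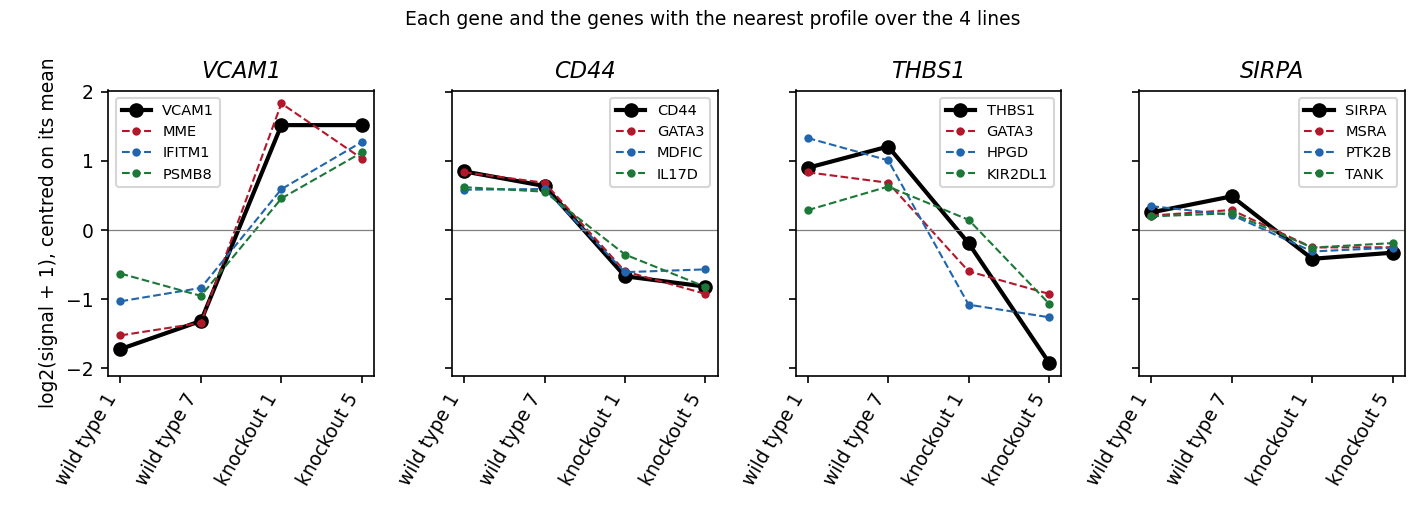
Log2(signal + 1), centred on the mean of the 4 lines, for each gene (black) and the 3 panel genes with the nearest profile (dashed). GATA3 follows CD44 at a distance of 0.14, whereas THBS1 has none of the 337 candidates nearer than 1.20. Genes of lower mean signal were not candidates.

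The 4 genes lie on different chromosomes of GRCh38.p14. VCAM1 spans positions 100719742 to 100739045 of chromosome 1, and CD44 spans 35139171 to 35232402 of chromosome 11. THBS1 spans 39581079 to 39599466 of chromosome 15, and SIRPA spans 1894167 to 1940592 of chromosome 20. The position of each probe within its transcript is not given in the sources used here. The nearest tested panel genes on each side were set beside them. CD44 stands between CD59, 1.4 Mb away, and TRAF6, 1.3 Mb away, whose log2 differences were 0.03 and -0.11. RASGRP1, 1.1 Mb from THBS1, had -0.25, and RBCK1 and MAVS, 1.5 and 2 Mb from SIRPA, had -0.26 and 0.12. None of these 5 passed limma's adjusted threshold of 0.05. For VCAM1 the nearest tested genes were SORT1, at 8.6 Mb with -0.02, and GBP4, at 11.5 Mb with -0.43, and neither passed.

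Other adhesion and matrix genes of the panel were read from the same fit. Across lists of adhesion receptors, integrins, matrix genes and their signalling partners, 68 other genes were measured and 43 reached the mean of 20 needed for testing. Of these, 4 rose and 0 fell at a limma adjusted p under 0.05, but 2 were lower without wild-type line 1 or without knockout line 1, and 1 with cyclic loess. The 4 genes are 9.30%, against 8.17% of all 514 tested genes, with 6.23% higher in the knockout and 1.95% lower. These are 32 genes against 10, and the numbers were 40 against 29 with cyclic loess, 53 against 8 with scaling on the reference genes without TBP, and 30 against 47 without knockout line 1. The median log2 difference was 0.00 for the 43 and -0.04 for the 514. The share called was thus near that of the panel as a whole. At an unadjusted p under 0.05 there were 11 of the 43, or 25.6%, against 19.8% of all tested genes, and edgeR on the recovered counts called 3, against 7.98% of all tested genes.

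Of the partners of these genes, ITGA4, ITGB1, CD47, PTPN11, SPP1 and FN1 were not among the panel genes measured. All 6 measured integrin chains lay below the background limit of every line, from 2.08 to 21.9, and none was tested. ITGB7, which pairs with ITGA4 in a receptor for VCAM1 and is named here after its values were seen, was at 4.17 and 7.70 in the wild-type lines and at 7.79 and 6.24 in the knockout lines. Of the 5 tested adhesion receptors, 0 passed with limma or edgeR and 1 had an unadjusted p under 0.05. That gene was ICAM3, an immunoglobulin-type ligand of leukocyte integrins, at 48.0 and 68.5 in the wild-type lines against 87.9 and 90.5 in the knockout. Its log2 difference was 0.63 ± 0.24 (SE; limma adjusted p = 0.165). CD81, an abundant tetraspanin, ranged from 2922 to 3062 over the 4 lines, with a log2 difference of -0.02, and CDH1, E-cadherin, had 0.06.

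Among matrix genes, 0 of 4 tested passed with limma or edgeR, and 1 had an unadjusted p under 0.05. TIMP2, an inhibitor of matrix metalloproteinases, was at 176 and 178 in the wild-type lines and at 223 and 263 in the knockout lines, a log2 difference of 0.45 ± 0.14 (SE; limma adjusted p = 0.0852). PLAU, the urokinase protease, had -0.64 and its receptor PLAUR 0.57, with limma adjusted p of 0.308 and 0.316. Of the 7 thrombospondin receptor and TGF-beta genes, 0 passed with limma or edgeR and 2 had an unadjusted p under 0.05. CD36, the scavenger receptor that binds THBS1, was at 107 and 173 in the wild-type lines and at 94.6 and 109 in the knockout lines, so its groups overlapped (log2 difference -0.42 ± 0.23; limma adjusted p = 0.325). TGFB1 had -0.17, and the TGF-beta effectors SMAD3 and SMAD4 had -0.26 and 0.23, with limma adjusted p of 0.197 and 0.186.

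Genes that rose were found among the signalling partners. SYK, a kinase that acts downstream of immune receptors and was placed in the SIRPA list, was at 34.4 and 40.2 in the wild-type lines against 83.5 and 66.6 in the knockout, a log2 difference of 0.98 ± 0.26 (SE; limma adjusted p = 0.0411). SYK lost its call without wild-type line 1 (limma adjusted p = 0.0893), without knockout line 1 (0.0951) and under limma without the trend (0.113). With edgeR its adjusted p was 0.0521 with the authors' factors, 0.0355 with TMM factors and 0.0635 with TMM factors and library sizes over the tested genes. PTPN6, the phosphatase that SIRPA recruits, overlapped between genotypes, at 38.6 and 32.5 against 50.1 and 29.1 (log2 difference 0.11 ± 0.34). In the focal adhesion list 2 of 7 passed (28.6%, against 8.17% of all tested genes), the kinase FYN and the actin-linked protein MARCKS. Their log2 differences were 1.20 and 1.24 (limma adjusted p = 0.000229 and 7.53e-06). Under limma without the trend neither passed (adjusted p = 0.0801 and 0.0774). TLN1 and PXN, the integrin adaptors talin and paxillin, had -0.04 and 0.22 and did not pass.

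Of the 21 measured inducers and regulators of VCAM1, such as NF-kB subunits and cytokines, 14 were tested. None passed with limma or edgeR, and 2 had an unadjusted p under 0.05, while the median log2 difference was 0.00. The 2 went in opposite directions. NFKB2, an NF-kB subunit, was at 283 and 290 in the wild-type lines and at 358 and 342 in the knockout lines. Its log2 difference was 0.29 ± 0.11 (SE, limma adjusted p = 0.181). JUN was at 103 and 127 in the wild-type lines and at 85.7 and 61.4 in the knockout lines. Its log2 difference was -0.65 ± 0.22 (SE, limma adjusted p = 0.119). The NF-kB subunits NFKB1, RELA and REL had -0.26, 0.13 and 0.12. SP1, a general transcription factor, had 0.08. The kinase subunits CHUK and IKBKG had -0.11 and 0.18. The 7 regulators that were not tested lay below the background limit of every line. RNA levels of these genes do not measure NF-kB activity.

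**Figure D5:**
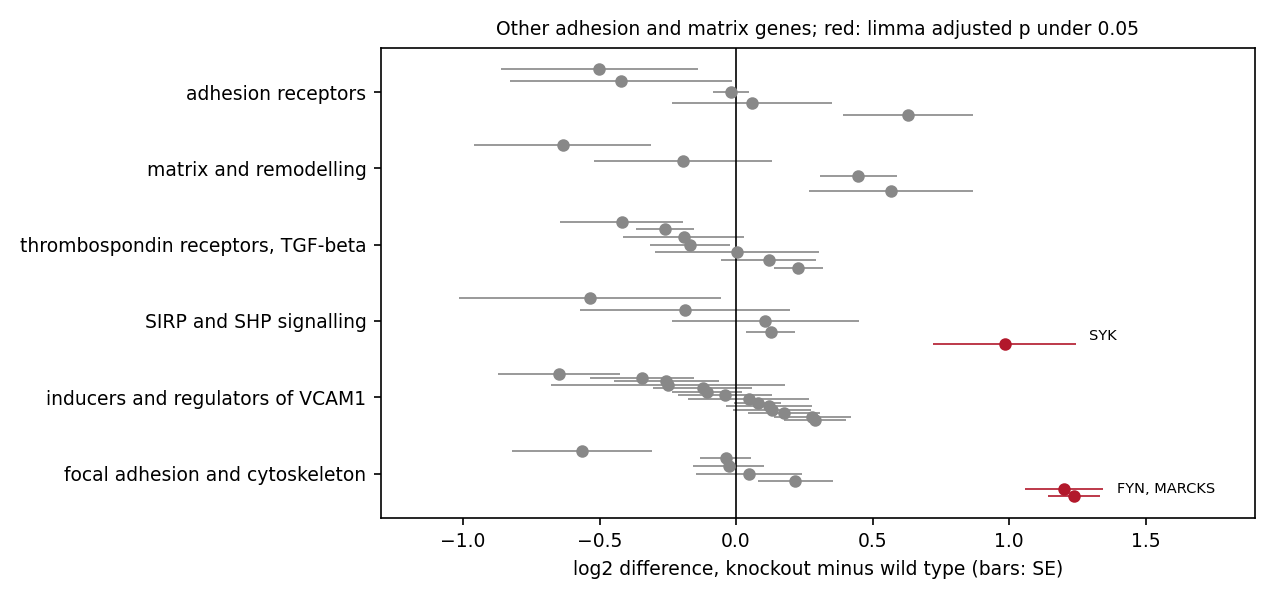
Log2 difference, knockout minus wild type, with its SE for the tested genes of each list reported here, other than the 4 genes; a gene may be in more than 1 list. SYK, FYN and MARCKS, in red, passed limma's adjusted p of 0.05 and lie between 0.98 and 1.24.

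VCAM1 and SIRPA are best known from endothelial cells and macrophages, so markers of other cell types were read as a check on the label. HAP1 has no marker of its own among the genes listed. Of the endothelial markers PECAM1, VWF and SELE, none was above the background limit in all lines, and their summed signal was 48.0 to 55.6 in the wild type and 35.4 to 44.5 in the knockout. PTPRC, LCP1 and SPI1, which mark leukocytes of any kind, were below the limit in every line. Of 6 monocyte and macrophage markers, CD14 and CD68 were above the limit in all lines and 3 were below it in all, with sums of 123 to 135 in the wild type and 86.4 to 115 in the knockout. Sums were 100 to 133 and 84.3 to 127 for 9 T and NK cell markers, of which 0 were above the limit in all lines. For 4 B cell markers they were 38.6 to 64.2 and 35.4 to 37.8, and all 4 genes were below it everywhere. The epithelial marker CDH1 was above the limit in all lines, at 35.5 to 41.1. The part of these low signals in the VCAM1 and SIRPA values was not tested.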

How the data were processed

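NanoString signals of 785 genes and 14 control probes were read for 4 HAP1 lines. The gene values deposited by the authors are a normalised signal; the values show whole counts times 1 factor per line, within a tolerance of 0.006, except 4 values at 1.00 in wild-type line 7. Control probes were deposited unscaled. The submitters' processing notes name R 4.1.1; the scaling method is not given in the sources used here. Genes with a mean of 20 or more were compared on log2(value + 1) with limma 3.58.1 (eBayes with trend) in R 4.3.3, all 4 lines in 1 fit without covariates, adjusted by Benjamini-Hochberg over 514 genes, threshold 0.05. The pseudocount understates changes of low genes. P-values are two-sided and come from these 4 lines only. In limma the variance of each gene is drawn toward a trend over all tested genes. Its SE and p-values are thus moderated and do not measure the spread of that gene's own lines alone. The pooled log2 SD within genotypes was 0.20 for VCAM1, 0.13 for CD44, 0.88 for THBS1 and 0.12 for SIRPA. The printed SE were 0.20, 0.27, 0.47 and 0.20 in that order. edgeR 4.0.16 was run on recovered counts.

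The 4 genes and the lists were chosen with earlier results of these data known. Named beside the 4 genes are list genes past the threshold and up to 4 per list with the highest mean of the rest. Measured partners among 8 and the 3 nearest profiles per gene are named too. Position neighbours, ITGB7, JUN, NFKB1, RELA, REL and genes of the closing section were named after their values were seen. Among list genes, 1 past the threshold is counted but not reported here. Of the panel genes, 768 matched 1 RefSeq gene. On simulated counts limma recovered 97.2% of 180 changed genes among 491, with 4 false calls. The simulation gave every gene the same small spread between lines and used changes of fixed sizes. That spread was set in advance and not estimated from the 4 lines. The result therefore does not give the power or the rate of false calls in these data.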

Additional observations from a re-analysis of the deposited data

How the results depend on the processing

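No paired analysis was possible because line number 1 is the only number common to both genotypes. The log2 differences between genotypes moved by more than the pooled SD within genotypes in these cases. With background subtracted, the log2 difference was 3.43 for VCAM1, -1.82 for CD44 and -3.00 for THBS1. With a pseudocount of 10, it was 2.73 for VCAM1 and -1.23 for CD44. Both settings by construction act most on low values. Between the knockout lines, THBS1 differed by -3.07 with background subtracted, outside its counting interval of -3.00 to -0.76. With cyclic loess the difference between genotypes was -1.26 for CD44, and the cause was not tested. Without single lines the ranges were 2.83 to 3.24 for VCAM1, -1.59 to -1.38 for CD44, -2.97 to -1.24 for THBS1 and -0.86 to -0.63 for SIRPA. The number of genes past the threshold, 42, was 69 with cyclic loess and 4 with limma without the trend, and the cause was not tested. It was 77 without knockout line 1, 29 without knockout line 5 and 53 and 37 without wild-type lines 1 and 7. With the TMM factors of edgeR it was 48, or 29 with library sizes taken over the tested genes, a setting chosen after seeing the data, as was THBS1 at its limit. The number of list genes past the threshold, 4, was 0 with limma without the trend, where 12 had an unadjusted p under 0.05. It was 4 to 6 without single lines and 3 to 6 under the others. DESeq2 was planned only for a table of raw counts and was not run. Counts of 10 to 33 limit THBS1 and CD44 in the knockout.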

Other observations

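Some panel genes with roles in cell contact were in none of the lists and were looked at after the results were seen. MIF, a secreted cytokine whose receptor complex includes CD44, was at 9584 and 9911 in wild-type lines 1 and 7 and at 11817 and 12347 in knockout lines 1 and 5, a log2 difference of 0.31 ± 0.06 (SE; limma adjusted p = 0.00594). APP, a membrane protein with roles in neuronal adhesion, was at 6317 and 5954 in the wild-type lines and at 4904 and 5025 in the knockout lines, a log2 difference of -0.30 ± 0.06 (SE; limma adjusted p = 0.0104). In both genes the groups did not overlap, and the differences were small beside those of the 4 genes.

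ADGRE5, the adhesion receptor CD97, was at 147 and 145 in the wild-type lines and at 124 and 108 in the knockout lines, and did not pass (log2 difference -0.34 ± 0.17; limma adjusted p = 0.295). LGALS3, the sugar-binding protein galectin 3, overlapped between genotypes, with a log2 difference of 0.04 ± 0.17 (limma adjusted p = 0.92).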
